A study of Mus musculus with 6 samples.

Results

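The genes described here are 10 transcription factor and receptor genes of the melanocyte lineage: Mitf, Sox10, Pax3, Tfap2a, Sox9, Sox5, Lef1, Kit, Ednrb and Met. They were taken by gene name, not by any measured value, from a table of 51912 genes, and all 10 were found in it under a single row each. RNA was sequenced from 6 libraries of B16F10, a pigmented mouse melanoma cell line kept in culture. In 3 libraries the line was wild type (WT, replicates 1, 2 and 3), and the other 3 came from cells with a knockout of annexin A10 (ANXA10-/-, called A10KO, replicates 1, 13 and 14). No treatment, time point or animal age is given for either group, the line is the only shared background named, and whether the A10KO numbers stand for clones, cultures or repeat preparations is not stated. Every p-value below is thus set against library-to-library variation alone, part or all of which may be technical. Annexins bind membranes in the presence of calcium, and the study was made to learn what annexin A10 does in metastasis of melanoma.

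MITF is a basic helix-loop-helix leucine zipper factor that binds E-box sequences and drives pigment, survival and cell cycle genes in melanocytes. Its gene has several start sites, of which the one nearest the shared exons is used in melanocytes and is bound by SOX10, PAX3, LEF1 with beta-catenin, and CREB. KIT, EDNRB and MET are receptors for stem cell factor, endothelins and hepatocyte growth factor, and each is known to act on melanoblast growth or migration and to feed into the RAS-MAPK cascade.

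The sequences that follow are given as background. They show the melanocyte start of Mitf, the promoters of Kit and Ednrb, and the E-box of Met, a described MITF target. Of the factors named above for the Mitf start, SOX10, PAX3 and LEF1 are encoded by genes among the 10, and CREB is not. Whether these letters bear on the values below was not tested. Promoter entries from RefSeq (build GRCm38.p6) were found for 7 of the 10 genes; Sox10, Pax3 and Sox9 had none. Each window held the 250 bases before a start and was searched on both strands for 7 words: TGACGTCA (the cyclic AMP response element), CACGTG and CATGTG (E-boxes), CTTTGA (LEF/TCF), ACAAAG and ACAATG (SOX) and GCCNNNGGC (AP-2). Capitals mark a match, no matches overlap each other, and letters that lie in an annotated exon were left off except at the Met site.
Mitf, chr6:97991533-97991782, + strand: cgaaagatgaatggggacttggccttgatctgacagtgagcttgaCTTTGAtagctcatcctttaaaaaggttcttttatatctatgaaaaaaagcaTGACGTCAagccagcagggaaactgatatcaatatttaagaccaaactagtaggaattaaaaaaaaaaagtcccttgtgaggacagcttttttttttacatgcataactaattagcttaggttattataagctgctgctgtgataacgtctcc
Kit, chr5:75574737-75574915, + strand: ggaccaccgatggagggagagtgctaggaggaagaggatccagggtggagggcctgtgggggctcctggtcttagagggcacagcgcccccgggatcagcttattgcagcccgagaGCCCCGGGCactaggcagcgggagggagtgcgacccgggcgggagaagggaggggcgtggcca
Ednrb, chr14:103843702-103843951, - strand: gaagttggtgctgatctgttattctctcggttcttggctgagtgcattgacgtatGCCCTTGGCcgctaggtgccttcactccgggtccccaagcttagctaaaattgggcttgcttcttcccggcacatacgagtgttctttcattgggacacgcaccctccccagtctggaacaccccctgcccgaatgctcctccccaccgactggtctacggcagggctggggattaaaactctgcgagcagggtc
Met, chr6:17463819-17463848, + strand: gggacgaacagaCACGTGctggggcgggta

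The Mitf window lies inside an intron of the longer Mitf transcripts. It held 1 LEF/TCF word starting 205 bases and 1 cyclic AMP response element starting 153 bases before the start. It held no SOX word, and no word for PAX3 was searched. The Kit and Ednrb windows each held 1 AP-2 word, starting 134 and 195 bases before the start. The Ednrb window lies inside the span of the gene in the GENCODE annotation, outside its exons. The Met E-box starts 126 bases before the RefSeq start, inside an exon of the GENCODE annotation. In all, 14 windows were searched, and those not printed are as follows. A Lef1 window held 5 matches, to CACGTG and to the LEF/TCF and SOX words. The Sox5 window held 1 SOX word, ACAATG. An overlapping Kit window held the same AP-2 word. The other Mitf and Lef1 windows and the Tfap2a windows held no match. Of 32536 promoter windows of the same length, the cyclic AMP response element was found in 1.56%, CACGTG in 6.04%, CATGTG in 12.3%, CTTTGA in 13.9%, ACAAAG in 16.5%, ACAATG in 10.5% and the AP-2 word in 13.8%. The share of these windows that held any of the words was not counted, so how common a single match is was not tested. A match is a description of the letters, not evidence of binding, and the table gives 1 value a gene, so it does not show which start was used.

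The deposited values were read as TPM, a transcript abundance scaled by transcript length and to a common total. Levels of different genes can thus be set side by side, but the depth of each library is unknown. The columns summed to between 969834 and 985045, so their totals were close but not equal. In all 6 libraries the knocked-out gene itself, Anxa10, was listed at 0, so it gives no check of the labels. Pigment cell identity was checked with 9 markers (Tyr, Tyrp1, Dct, Pmel, Mlana, Slc45a2, Gpr143, Trpm1 and Oca2), all of which passed 1 TPM in at least 3 libraries, with a summed level of 8749 to 9806 TPM in WT and 9266 to 11100 in A10KO. Of 10 keratinocyte markers, 10 were under 1 TPM in every library and 7 at 0, Krt1, Krt10 and Trp63 among them, and their sums were 0.24 to 0.34 TPM in WT and 0 to 0.42 in A10KO. Leukocyte and mast cell markers were under 1 TPM in every library for 9 of 10, with sums of 0.75 to 1.35 and 0.34 to 1.67 TPM, and the mast cell genes Cpa3, Mcpt4 and Fcer1a, of a cell type that also depends on Kit, were at 0 throughout. Fibroblast markers were under 1 TPM for 7 of 10, with sums of 4.48 to 5.53 and 1.82 to 4.79 TPM, and Col1a1 lay lower in A10KO without overlap, at 1.93 to 2.46 against 0.32 to 1.6 TPM. Of 10 Schwann cell markers, a lineage that shares Sox10, 6 were tested. The sums over the 10 were 451 to 493 TPM in WT, most of it Mbp, and 166 to 452 in A10KO. Pmp22 lay higher in A10KO without overlap, at 14.9 to 17.1 against 17.6 to 63.8 TPM. The groups thus did not overlap for 1 of 2 tested fibroblast markers and 1 of 6 tested Schwann cell markers, against 17.1% of all genes tested. The part of such cells in the results was not tested. The A10KO libraries differed among themselves: mitochondrially encoded transcripts took 14.7% of TPM in replicate 13 and 6.32% to 7.93% in the other 5 libraries.

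Of the 10 genes, 7 were expressed in every library and 3 were listed at or near 0. Sox10 had the highest level, 254 to 375 TPM, followed by Mitf and Pax3, then Tfap2a and Met, then Sox5 and Sox9. Ednrb was at 0 TPM in all 6 libraries, Kit at 0 in 5 and at 0.02 in A10KO replicate 14, and Lef1 at 0 in 5 and at 0.05 in WT replicate 2. None of the 7 expressed genes differed between A10KO and WT beyond the spread between libraries. In bulk RNA, fewer cells expressing a gene and less RNA per cell cannot be told apart.

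The comparison was fitted with limma, a linear model that shares information on the variance across genes, on log2(TPM + 1) over 12068 genes that reached 1 TPM in at least 3 libraries. The 7 expressed genes passed that filter and the 3 near 0 did not. At an adjusted p (Benjamini-Hochberg) under 0.05, 0 of the 7 were called, against 5 of 12068 genes tested (0.0414%), of which 2 (0.0166%) were higher and 3 (0.0249%) lower in A10KO. At an unadjusted p under 0.05, 0 of 7 passed, against 8.83% of all genes tested. The A10KO and WT values overlapped for 7 of 7, whereas for 17.1% of all genes tested they did not. The median log2 change (A10KO minus WT) was -0.04 over the 7 genes and -0.04 over all genes tested, with 3 of the 7 above 0 and 4 below.

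**Figure D1:**
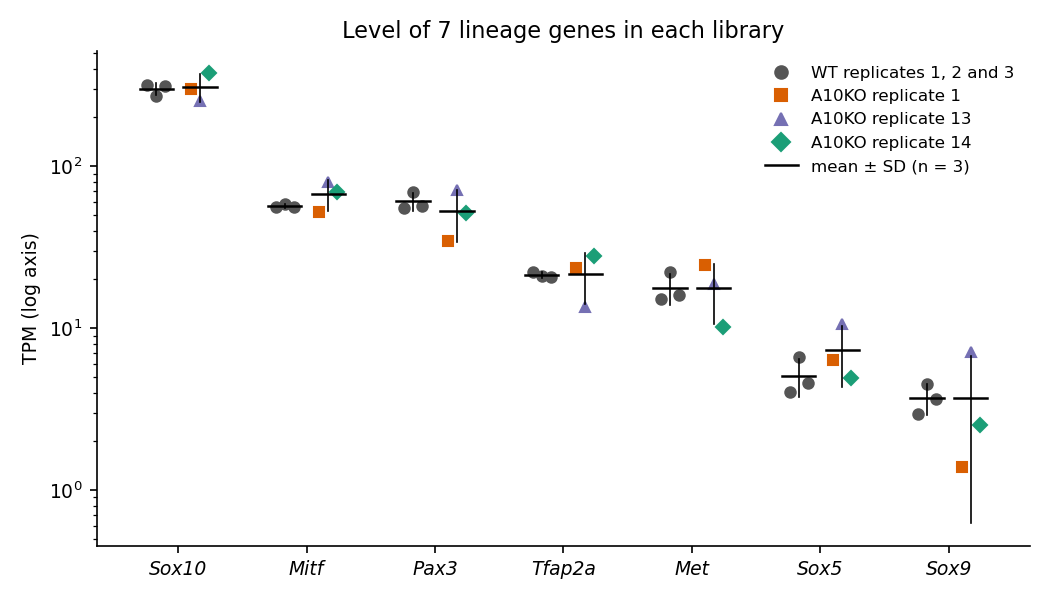
TPM on a log axis for the 7 expressed lineage genes, ordered by mean level, with a point for each library and bars for the mean ± SD of 3 libraries per group. WT libraries lie close together for Mitf (56.0 to 58.2 TPM) and Tfap2a (20.7 to 22.3 TPM), and the A10KO libraries spread around them.

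Among the transcription factors, Mitf (ENSMUSG00000035158, GRCm38 chromosome 6, 97807052 to 98021349) was the steadiest gene in WT. It stood at 56.0, 58.2 and 56.2 TPM in WT replicates 1, 2 and 3 and at 52.2, 80.3 and 69.7 TPM in A10KO replicates 1, 13 and 14. A10KO replicate 1 lay just below the WT libraries and the other 2 A10KO libraries above them, so the groups overlapped. The WT mean was 56.8 ± 1.25 TPM and the A10KO mean 67.4 ± 14.2 (SD, n = 3 libraries, as for each mean that follows), a log2 change of 0.22 (SE 0.17, 95% interval -0.17 to 0.61, limma adjusted p = 0.749). On the log2(TPM + 1) scale that interval runs from 0.89-fold to 1.53-fold. Without A10KO replicate 1 the log2 change was 0.39, and without A10KO replicate 13 it was 0.09, with limma adjusted p-values of 0.384 and 0.846.

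Sox10 (ENSMUSG00000033006, chromosome 15, 79154908 to 79165240) encodes the SOX factor that maintains the melanocyte lineage and acts on Mitf and Dct. Its values were 318, 269.9 and 312 TPM in WT and 299.9, 254 and 375 TPM in A10KO replicates 1, 13 and 14. The lowest and the highest library were both A10KO. Sox10 ranked between place 373 and place 496 of all genes by TPM in the 6 libraries. Its mean was 300.1 ± 26.4 TPM in WT and 309.5 ± 61.0 in A10KO, and its log2 change of 0.03 (SE 0.16, 95% interval -0.35 to 0.41, limma adjusted p = 0.968) had the narrowest interval of the 7. It turned to -0.04 without WT replicate 2 and to -0.12 without A10KO replicate 14.

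Pax3 (ENSMUSG00000004872, chromosome 1, 78101267 to 78197134) encodes a paired-domain factor of neural crest and melanoblasts that acts with SOX10 on Mitf. It stood at 55.5, 69.2 and 57.1 TPM in WT and at 34.3, 71.6 and 51.7 TPM in A10KO. A10KO replicate 1 was the lowest library, replicate 13 the highest. The log2 change of -0.26 (SE 0.25, limma adjusted p = 0.791) rested on replicate 1: it was 0.01 without that library and -0.51 without replicate 13. In replicate 1 the difference of Pax3 from the WT mean was -0.80 on the log2 scale, beside a median of -0.26 over the other genes of chromosome 1 with at least 5 TPM.

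Tfap2a (ENSMUSG00000021359, chromosome 13, 40715302 to 40738376), the gene for AP-2 alpha, which acts in neural crest and with MITF on pigment genes, had nearly equal group means. It was at 22.3, 20.9 and 20.7 TPM in WT and 23.4, 13.5 and 28.1 TPM in A10KO, where replicate 13 was below and the other 2 above all WT libraries. The log2 change was -0.04 (SE 0.25, limma adjusted p = 0.972), and it stood at 0.25 without A10KO replicate 13 and at -0.25 without replicate 14. Its sign also depended on the scaling, with 0.01 under trimmed-mean or median-of-ratios scaling. The difference of replicate 13 from the WT mean was -0.62, beside -0.27 for the median of chromosome 13.

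The SOX genes Sox9 and Sox5 were expressed at a few TPM. Sox9 (ENSMUSG00000000567, chromosome 11, 112782224 to 112787760), a relative of Sox10 that also acts in cartilage and glia, was at 2.95, 4.52 and 3.65 TPM in WT and 1.38, 7.14 and 2.51 TPM in A10KO. The A10KO libraries lay on both sides of the WT libraries, and the A10KO SD of 3.05 TPM was nearly as large as the mean of 3.68. The log2 change was -0.19 (SE 0.43, 95% interval -1.21 to 0.82, limma adjusted p = 0.918), 0.20 without A10KO replicate 1 and -0.69 without replicate 13. Sox5 (ENSMUSG00000041540, chromosome 6, 143828425 to 144781977), a SOX factor without an activation domain that is known to counter SOX10 in melanocytes, was at 4.04, 6.60 and 4.59 TPM in WT and 6.32, 10.6 and 4.91 TPM in A10KO. A10KO replicate 13 was the highest library and the other 2 lay within the WT range. Its log2 change of 0.41 (SE 0.30, 95% interval 0.82-fold to 2.15-fold of TPM + 1, limma adjusted p = 0.741) was the largest of the 7 in size. It was 0.14 without replicate 13.

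Lef1 (ENSMUSG00000027985, chromosome 3, 131110471 to 131224356), which encodes a partner of beta-catenin, was listed at 0 TPM in 5 libraries and at 0.05 in WT replicate 2. Binding to the LEF/TCF word in the Mitf window shown above was not measured. Its paralogs were expressed. Tcf7l1 had a WT mean of 16.3 ± 0.787 TPM and an A10KO mean of 14.2 ± 6.75, Tcf7l2 stood at 4.56 ± 0.729 and 4.93 ± 2.43, and Tcf7 at 5.68 ± 0.652 and 3.46 ± 0.571. Ctnnb1, the gene for beta-catenin, stood at 572 ± 22.7 and 624 ± 57.8 TPM. LEF1 and the products of these 3 paralogs bind the same core sequence.

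Of the 3 receptor genes, Met alone was expressed. Met (ENSMUSG00000009376, chromosome 6, 17463800 to 17573980), the receptor for hepatocyte growth factor, was at 15.1, 22.3 and 16.0 TPM in WT and at 24.6, 18.7 and 10.2 TPM in A10KO replicates 1, 13 and 14. The highest and the lowest library were both A10KO. The means were 17.8 ± 3.93 and 17.8 ± 7.22 TPM, and the log2 change was -0.06 (SE 0.31, 95% interval -0.79 to 0.67, limma adjusted p = 0.968). Leaving out A10KO replicate 14 gave 0.28 and leaving out A10KO replicate 1 gave -0.32. With WT replicate 2 left out it was 0.11.

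Kit (ENSMUSG00000005672, chromosome 5, 75574916 to 75656722), the stem cell factor receptor, and Ednrb (ENSMUSG00000022122, chromosome 14, 103814625 to 103844402), the endothelin receptor of melanoblasts, were listed at 0 TPM in every WT library. The single value above 0 was the 0.02 TPM of Kit in A10KO replicate 14. Since TPM keeps no depth, these zeros carry no detection limit. The genes for the ligands were also low: Edn1, Edn2, Edn3 and Hgf were at 0 TPM in all 6 libraries, and Kitl, which encodes stem cell factor, was at 0.18 to 0.33 TPM in WT and 0.02 to 0.27 TPM in A10KO. Ednra, the other endothelin receptor gene, reached at most 0.03 TPM.

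**Figure D2:**
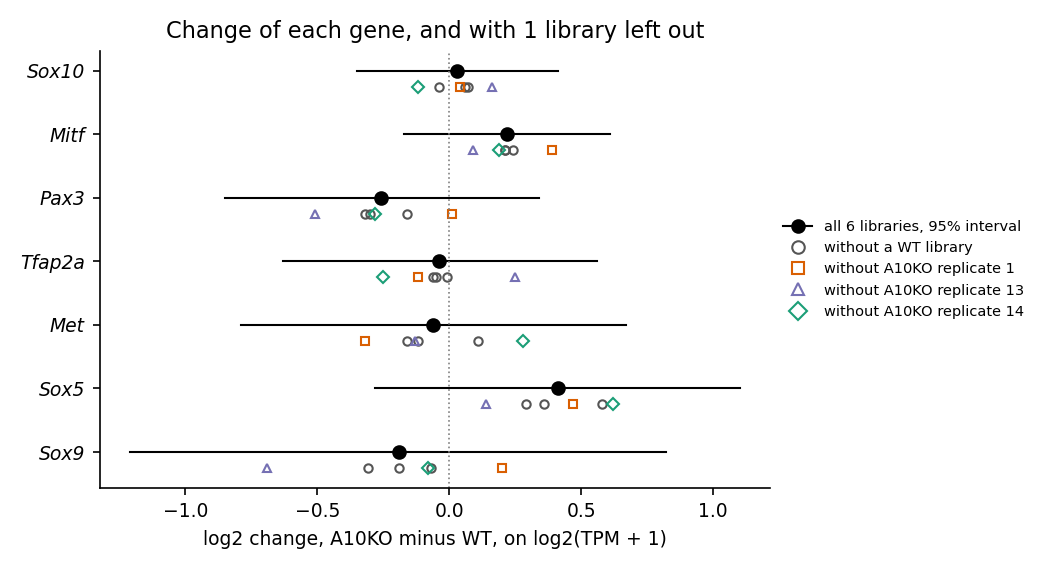
Log2 change of each expressed gene (A10KO minus WT on log2(TPM + 1)) with its 95% interval from limma, and below it the change with 1 library left out. All 7 intervals include 0, and leaving out an A10KO library moved Sox9 between -0.69 and 0.20.

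The order of levels was nearly the same in both groups. In WT the ranges of Sox10 and the next gene, Pax3, were apart (Sox10 was 3.90 to 5.73 times as high), Mitf and Pax3 overlapped, and Mitf and Tfap2a were apart (2.51 to 2.78 times). Tfap2a and Met overlapped, Met and Sox5 were apart (3.38 to 3.74 times), and Sox5 and Sox9 overlapped. In A10KO, Sox10 stood apart from Mitf (3.16 to 5.74 times) and Pax3 from Tfap2a (1.47 to 5.32 times), whereas all other neighbours, Met and Sox5 included, overlapped.

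Ratios between pairs of the 7 genes were compared over all 21 pairs, a comparison chosen after the values were seen, and in 2 pairs (9.52%) the groups did not overlap, against 17.5% of all pairs among the 11916 genes tested that were above 0 TPM in every library. The ratio of Mitf to Pax3 was 1.01, 0.842 and 0.985 in WT and 1.52, 1.12 and 1.35 in A10KO replicates 1, 13 and 14. The ratio of Sox9 to Sox5 was 0.730, 0.685 and 0.795 in WT and 0.218, 0.672 and 0.511 in A10KO. Each gave an exact two-sided permutation p = 0.1, the smallest that 3 against 3 libraries allow, and an adjusted p = 1 over the 21 pairs. No pair could have passed a threshold of 0.05 at this number of libraries. Mitf exceeded Pax3 in 3 of 3 A10KO libraries and in 1 of 3 WT libraries.

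Like most genes tested, the 7 genes had a wider spread among the A10KO libraries than among the WT libraries. On the log2(TPM + 1) scale the SD was larger in A10KO for 7 of 7, against 78.2% of all genes tested, and for 6 of 7, all but Sox5, the A10KO values reached both above and below the whole WT range, against 36.1% of all genes tested. The median SD was 0.17 in WT and 0.52 in A10KO for the 7 genes, and 0.14 and 0.29 for all genes tested. Mitf had an SD of 0.031 in WT and 0.312 in A10KO, a ratio of 10.1, though 53.9% of genes tested had a smaller A10KO SD than Mitf. Sox9 had the widest A10KO spread, with an SD of 0.907, larger than that of 95.8% of genes tested. With 3 libraries a group, these SDs are themselves uncertain, and no test of the spread, which was looked at after the values were seen, was made. Without A10KO replicate 13 the SD was larger in A10KO for 6 of 7, all but Sox5, and for 59.2% of all genes tested; without replicate 1 it was 7 of 7 and 67.4%, and without replicate 14 it was 6 of 7, all but Met, and 71.1%.

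**Figure D3:**
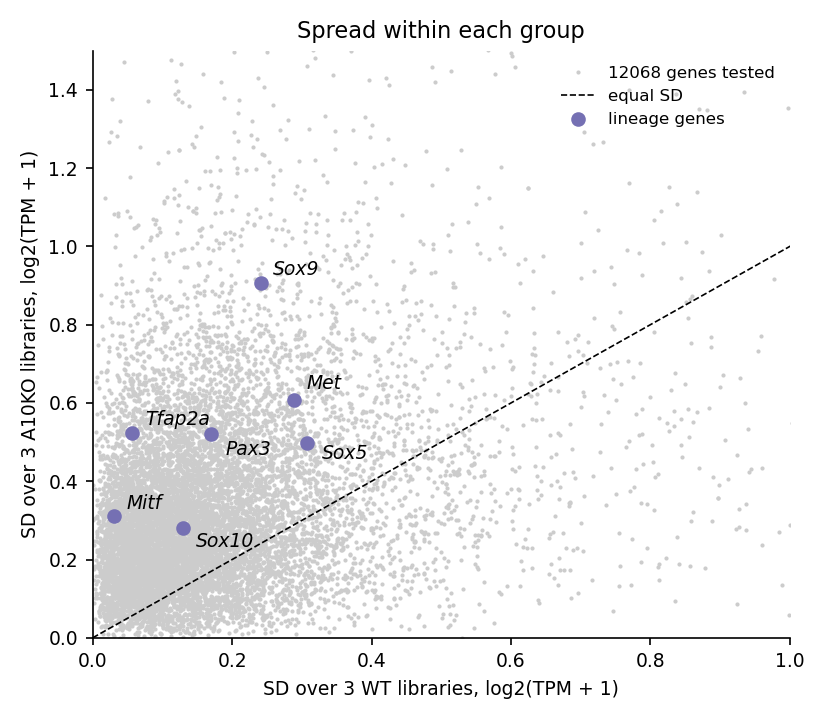
SD over the 3 A10KO libraries against the SD over the 3 WT libraries on the log2(TPM + 1) scale, with all genes tested in grey (239 lie outside the axes), the lineage genes labelled and a dashed line at equal SD. All 7 lineage genes lie above the line, and Sox9 lies highest.

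The A10KO libraries did not move the genes in a common direction. Replicate 13 held the highest value of the 6 libraries for 4 genes (Mitf, Pax3, Sox9 and Sox5) and the lowest for 2 (Sox10 and Tfap2a). Over all genes tested, it held the highest or lowest value for 55.7%. Replicate 1 was lowest for Mitf, Pax3 and Sox9 and highest for Met, and it was at either end for 45.7% of all genes tested. Replicate 14 was highest for Sox10 and Tfap2a and lowest for Met, with 29.4% over all genes tested. WT replicate 1 was lowest for Sox5.

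Differences of whole chromosomes and of long genes moved beside some of these values. The genes tested were divided by exon length into 3 classes of equal size, at 3082 and 5706 bases. In replicate 13 the longest class had a median log2 difference of 0.21 from the WT mean and the shortest class one of -0.15. The longest and shortest classes stood at -0.15 and -0.09 in replicate 1, at -0.03 and -0.02 in replicate 14 and at 0.12 and 0.00 in WT replicate 2. Mitf, Pax3, Sox5 and Met fell in the longest class, Tfap2a and Sox9 in the middle and Sox10 in the shortest. On chromosome 6, which holds Mitf, Sox5 and Met, the medians were 0.11, -0.01 and 0.02 in replicates 1, 13 and 14, while Mitf was at -0.12, 0.49 and 0.29, Sox5 at 0.29, 0.96 and -0.02 and Met at 0.46, 0.09 and -0.73. The part of transcript length and of chromosome-wide differences in the values of the 7 genes was not tested.

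**Figure D4:**
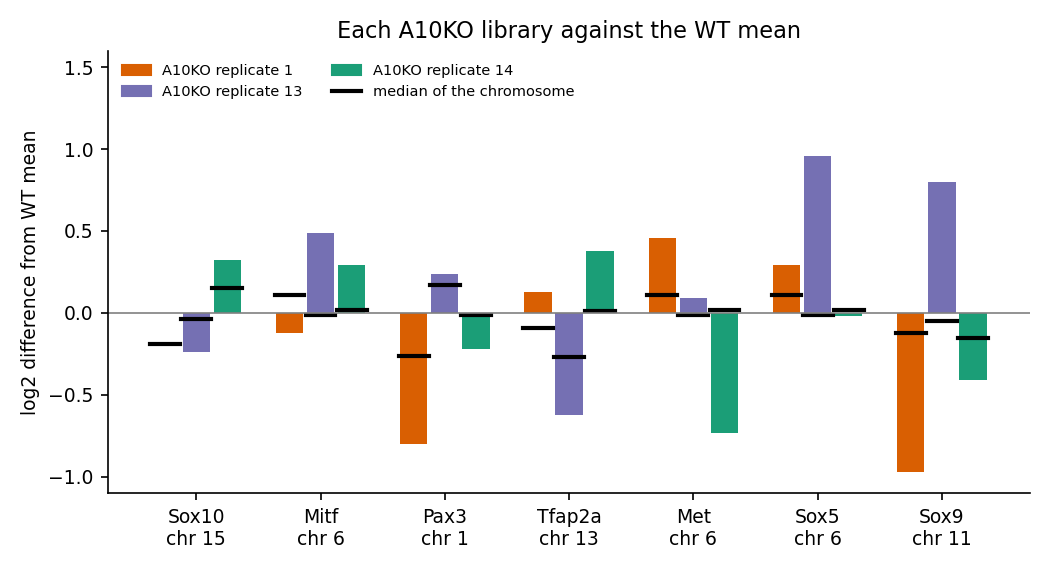
Log2 difference of each A10KO library from the WT mean for the 7 genes (bars), with the median difference of the other genes of the same chromosome as a black line. Sox9 runs from -0.97 in replicate 1 to 0.80 in replicate 13, beside chromosome 11 medians of -0.12 and -0.05.

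Sox10 and Tfap2a were the most alike pair across the libraries and Tfap2a and Sox9 the least. Likeness was taken as the root-mean-square distance of log2(TPM + 1) values, each gene centred on its own mean of the 6 libraries. The distance was 0.178 for Sox10 and Tfap2a, 0.257 for Pax3 and Sox9, 0.281 for Mitf and Pax3, 0.301 for Mitf and Sox10, and 0.817 for Tfap2a and Sox9. Of the genes with at least 5 TPM on average, 15.0% were nearer to Sox10 than Tfap2a was, and 54.7% were nearer to Mitf than Sox10 was. The 5 genes nearest to Mitf among 9375 were Cisd2 (0.024), Hnrnpdl (0.037), Mief1 (0.039), Slc39a9 (0.041) and Mcm4 (0.042). These distances favour genes with little variation and describe 6 libraries only.

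The gene lists from here on were chosen with earlier results of these data known, which limits the comparison of their shares with all genes tested. Paralogs of the factors gave 0 called genes by limma. Of 18 listed, 8 were tested and 10 were under 1 TPM in every library, the AP-2 genes Tfap2b, Tfap2c and Tfap2e, Sox8 and Tfec among them. Tfe3, which encodes a close relative of MITF, stood at 29.2 ± 2.28 TPM in WT and at 28.2 ± 1.38 TPM in A10KO, and Tfeb, another, at 23.0 ± 1.84 and 22.4 ± 2.06 TPM. The SOX genes Sox4, Sox6 and Sox11 were tested as well, with Sox4 at 8.36 ± 2.42 and 7.17 ± 3.28 TPM. For 1 of the 8, Tcf7, the groups did not overlap (log2 change -0.59, SE 0.20, limma adjusted p = 0.478), a share of 12.5% against 17.1% of all genes tested. Tcf7 was also the 1 gene of the 8 with an unadjusted p under 0.05, against 8.83% of all genes tested. The median log2 change was -0.06, but it was -0.27 without A10KO replicate 13 and 0.03 without A10KO replicate 1.

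Other regulators of Mitf gave 0 called genes of 15 tested. For 4 of the 15 (Tbx2, Smarca4, Creb1 and Crebbp) the A10KO libraries lay above all WT libraries, and for 0 below, against 5.61% and 11.5% of all genes tested. The median log2 change was 0.26, beside -0.04 over all genes tested, and it was 0.11 without A10KO replicate 13. Tbx2, a T-box repressor gene that is also described as a MITF target, was at 52.0, 53.4 and 51.2 TPM in WT and 59.6, 91.0 and 74.5 TPM in A10KO (log2 change 0.49, SE 0.16, limma adjusted p = 0.471). Smarca4, the gene for the chromatin remodeller BRG1, which works with MITF and SOX10, stood at 64.4 ± 2.96 and 83.3 ± 10.4 TPM (0.36, SE 0.13, limma adjusted p = 0.503). At an unadjusted p under 0.05 there were 2 of the 15, these same genes, against 8.83% of all genes tested. Hif1a, at 71.1 TPM in A10KO replicate 13 and 20.8 to 33.0 TPM elsewhere, had the other large change of the list, 0.36. Pou3f2, which encodes the MITF repressor BRN2, was at 0.58 to 1.13 TPM in WT and 0.31 to 0.57 in A10KO and was not tested. Foxd3 was at 0 throughout.

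Genes described as MITF targets also gave 0 called genes, of 27 tested from 32 listed. At an unadjusted p under 0.05, 4 passed (Slc24a5, Trpm1, Tbx2 and Gpr143), and for these 4 the A10KO libraries lay above all WT libraries, with 0 genes below. That is 14.8% of the 27 without overlap, against 17.1% of all genes tested (5.61% higher and 11.5% lower), while 8.83% of all genes tested had an unadjusted p under 0.05. The median log2 change was 0.08, with 15 genes above 0 and 12 below, and it was 0.03 without A10KO replicate 13 or without replicate 14. Slc24a5, a melanosomal ion exchanger gene, was at 146, 129.6 and 139 TPM in WT and 214, 249 and 202 TPM in A10KO (log2 change 0.67, SE 0.12, limma adjusted p = 0.189). Trpm1, whose gene lies downstream of MITF in melanocytes, was at 33.2, 39.3 and 32.2 TPM in WT and 154, 52.4 and 88.5 TPM in A10KO (1.34, SE 0.35, adjusted p = 0.339). Gpr143, the gene of a melanosomal receptor, stood at 18.5 ± 2.27 and 27.6 ± 6.28 TPM (0.53, adjusted p = 0.502). Oca2, a melanosomal transporter gene, was at 8.41, 11.4 and 8.05 TPM in WT and 0.40, 4.85 and 11.3 TPM in A10KO, so that replicate 1 was far below and replicate 14 within the WT range (-1.13, SE 0.70, adjusted p = 0.688). Tyrp1 had the highest level, 2982 ± 101 and 3320 ± 772 TPM.

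**Figure D5:**
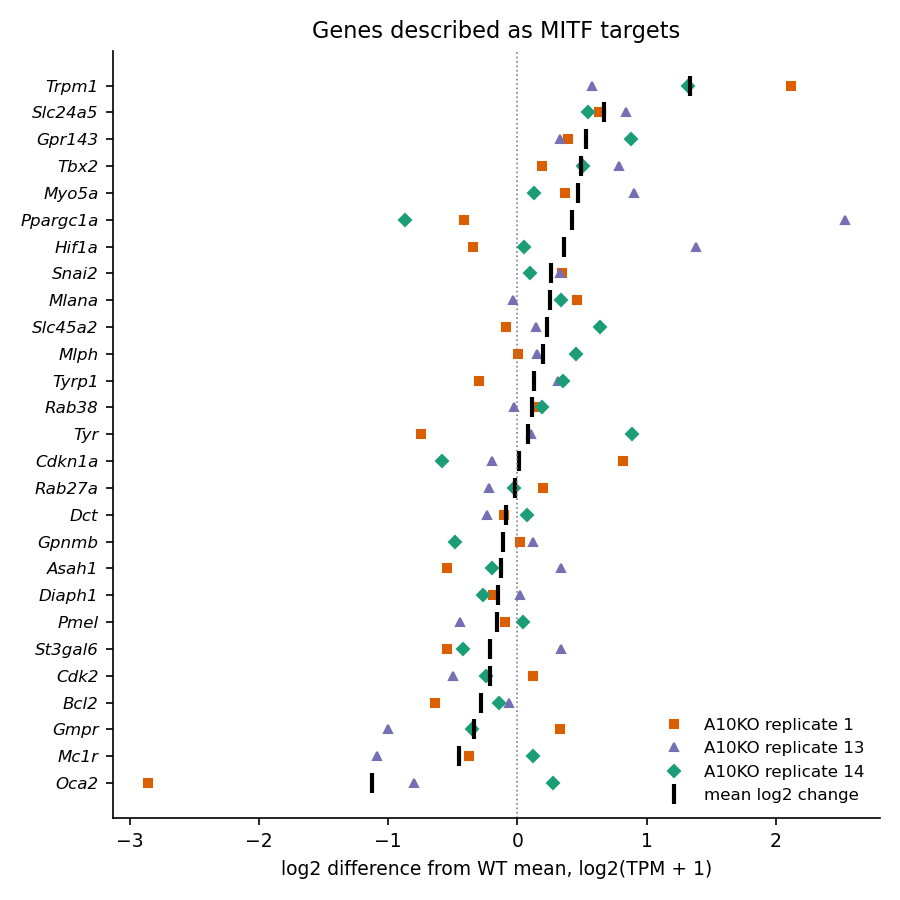
Log2 difference of each A10KO library from the WT mean on the log2(TPM + 1) scale for the 27 tested genes described as MITF targets, ordered by their mean log2 change (black tick). For Trpm1, Slc24a5, Gpr143 and Tbx2 all 3 A10KO libraries lie above 0, the WT mean, as they also do for some others, Myo5a among them. Oca2 and Ppargc1a have libraries far apart on both sides.

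Described targets of SOX10 and of LEF/TCF likewise held 0 called genes by limma, of 10 and 8 tested, with medians of 0 and -0.17. At an unadjusted p under 0.05 there were 1 and 1 of these, against 8.83% of all genes tested. The groups did not overlap for 10% and 12.5% of these genes, against 17.1% of all genes tested. The SOX10 target median ranged from -0.25 without A10KO replicate 14 to 0.13 without replicate 1, and the LEF/TCF target median was -0.27 without A10KO replicate 1 and -0.14 without replicate 14. Nes, the intermediate filament gene nestin, was at 47.1, 47.5 and 44.2 TPM in WT and 30.2, 28.4 and 35.6 TPM in A10KO, with no overlap (log2 change -0.55, SE 0.13, limma adjusted p = 0.304). Mbp, a myelin gene, stood at 423, 365 and 399.8 TPM in WT and at 39.7, 269.9 and 376 TPM in A10KO, low in replicate 1 above all (-1.30, SE 0.74, adjusted p = 0.662). Gas7 followed a like pattern, at 0.32 TPM in A10KO replicate 1 and 3.86 to 5.59 TPM in the other libraries. Dct, a SOX10 and MITF target and a pigment enzyme gene, stood at 1966 ± 61.7 and 1856 ± 203 TPM. In the LEF/TCF list, Axin2, a feedback inhibitor of beta-catenin, was at 8.53, 17.3 and 4.28 TPM in WT and 5.72, 3.22 and 5.75 TPM in A10KO (-0.76, SE 0.44, adjusted p = 0.667), and Tcf7, described above, was the gene without overlap. Nrcam stood at 38.2 ± 2.99 and 27.4 ± 15.3 TPM and Ccnd1, the cyclin D1 gene, at 74.9 ± 1.62 and 67.1 ± 18.9 TPM.

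Other receptors of melanocytes and melanoma showed 0 called genes of 15 tested. At an unadjusted p under 0.05 there were 3 of the 15, against 8.83% of all genes tested. Fgfr3, a fibroblast growth factor receptor gene, was at 3.24, 3.36 and 3.62 TPM in WT and 4.72, 12.4 and 8.46 TPM in A10KO (log2 change 1.03, SE 0.31, limma adjusted p = 0.426). Notch1 was at 1.31, 1.52 and 3.40 TPM in WT and 0.24, 0.71 and 0.18 TPM in A10KO (-1.12, SE 0.32, adjusted p = 0.403), and Fzd6, a WNT receptor gene, was at 4.17, 5.15 and 5.51 and at 6.61, 8.39 and 6.98 TPM (0.49, SE 0.19, adjusted p = 0.53). For these 3 genes the groups did not overlap, which is 20% of the 15, against 17.1% of all genes tested. The median log2 change of the receptors was -0.14 over the 15 genes, and it ran from -0.27 without A10KO replicate 13 to 0.01 without WT replicate 2. Mertk, a receptor tyrosine kinase gene and MITF-linked in melanoma, was at 68.4, 84.3 and 72.3 TPM in WT and 9.96, 62.2 and 77.3 TPM in A10KO, lowest in replicate 1 (-1.0, SE 0.67, adjusted p = 0.718). Mc1r, the melanocortin receptor that raises cyclic AMP and so Mitf, had the highest mean, 75.8 ± 8.52 TPM in WT and 58.4 ± 23.5 in A10KO. Downstream of the receptors, 21 of 21 adaptor and kinase genes were tested and 0 called, with a median of -0.05. At an unadjusted p under 0.05 there was 1 of the 21, against 8.83% of all genes tested. For 4 of the 21, Gab2, Shc1, Rps6ka1 and Mapk3, the A10KO libraries lay below all WT libraries, and for 1 above them, in all 23.8% against 17.1% of all genes tested. Mapk3, the gene for ERK1, stood at 129.8 ± 12.3 and 106.3 ± 18.9 TPM (-0.30, SE 0.16, adjusted p = 0.647). Map2k2 had the highest level, 187.6 ± 19.9 and 206.9 ± 62.7 TPM, Plcb4 a log2 change of 0.40 and Cbl of 0.39.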

How the data were processed

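RNA was measured in 6 libraries, 3 WT and 3 A10KO. The deposited values are TPM, as read from the values: they carry decimals and the columns sum to between 969834 and 985045, although the table is presented as raw counts. The submitters' processing notes name fastp, HISAT, RSEM and GRCm38.p5, without versions; settings and strand are not stated in what was used here. Each library's own file held the values of the series table in 6 of 6 cases. TPM keeps no depth, so no counting interval or detection limit is given, and the number of libraries sets the precision.

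Genes that reached 1 TPM in 3 or more libraries were fitted in limma 3.58.1 (R 4.3.3) with a mean-variance trend on log2(TPM + 1), and p-values were adjusted by Benjamini-Hochberg over the 12068 genes. Log2 changes understate changes of low genes. The code was tested on simulated data. Gene coordinates came from GENCODE M21 (GRCm38), matched by identifier for 51719 genes. Members were fixed by gene name, not by a measured value, and the gene lists were chosen with earlier results of these data known. Named from each list were called genes, the 3 largest changes and the highest mean, and further genes were chosen after their values were seen: Tfeb, Tfec, Tfap2b, Tfap2c, Tfap2e, Sox6, Sox8, Sox11, Tcf7l2, Creb1, Crebbp, Pou3f2, Foxd3, Ednra, Fzd6, Gab2, Shc1, Rps6ka1, Ppargc1a, Fgfr2, Ngfr, the ligand genes and the single markers. Some genes of these lists are counted but not reported here by name. Alternatives were 2 other pseudocounts, 2 filters, 3 scalings, removal of mitochondrial transcripts or of chromosome medians, 2 variance models and leaving out each library.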

Additional observations from a re-analysis of the deposited data

How the results depend on the processing

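Under 17 alternatives 0 of the 7 tested genes were called, with adjusted p-values from 0.384 upward. Mitf (0.09 to 0.39) and Sox5 (0.14 to 0.62) kept a log2 change above 0 throughout; Sox9 was not tested with a filter of 5 TPM. The sign of Tfap2a turned to 0.01 under trimmed-mean scaling, median-of-ratios scaling or without mitochondrial transcripts, 0.09 with chromosome medians removed and 0.19 with array quality weights. Leaving out 1 library gave -0.25 to 0.25 for Tfap2a, -0.12 to 0.16 for Sox10, -0.32 to 0.28 for Met, -0.51 to 0.01 for Pax3 and -0.69 to 0.20 for Sox9. The median of the tested genes was 0.11 with array quality weights and -0.08 to 0.09 with 1 library left out. Genes called numbered 3 under quantile normalization, 25 with array quality weights and 2 to 8 with 1 library left out (2 for WT replicates 1 and 2, 3 for WT replicate 3, 8 for A10KO replicate 1). The adaptor and kinase median was 0.04 with a 5 TPM filter, 0 under trimmed-mean, median-of-ratios or quantile scaling or array quality weights, 0.01 without mitochondrial transcripts or chromosome medians, and -0.06 to 0 with 1 library left out. With chromosome medians removed the MITF target median was 0.20 and the LEF/TCF target median -0.02, and the receptor median turned from -0.14 to 0.13 with a 5 TPM filter (9 genes). The cause of these shifts was not tested. The 7 lists of paralogs, regulators, receptors, adaptors and targets held 0 calls in each setting. No paired analysis was possible because the groups share only replicate number 1. Depth is unknown, so the zeros of Ednrb, Kit and Lef1 have no limit.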

Other observations

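Some receptor or cofactor genes around the lineage genes are given as values, chosen after the data were seen. For Fgfr2 and Ppargc1a, libraries lay far from the rest. Fgfr2, a fibroblast growth factor receptor gene, was at 118, 87.1 and 1.25 TPM in WT replicates 1, 2 and 3 and at 26.8, 56.4 and 18.2 TPM in A10KO replicates 1, 13 and 14. Its WT libraries thus ran from the highest to the lowest of the 6. Ppargc1a, which encodes the coactivator PGC-1 alpha and is described as a MITF target, was at 117 TPM in A10KO replicate 13 and at 10.2 to 25.7 TPM in the other 5 libraries. Ngfr, the neural crest receptor gene, was at 0.89, 1.43 and 1.41 TPM in WT and 0.26, 0.20 and 0.12 TPM in A10KO. Its groups did not overlap, as was so for 17.1% of all genes tested, and it was under the level needed for a test.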
